A study of Mus musculus with 6 samples.

Results

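The leukemia inhibitory factor (LIF) pathway was examined in mouse embryonic stem (ES) cells with and without a short hairpin RNA against Chd8, an ATP-dependent chromatin remodeller. The genes described are the ligand Lif, the receptor chains Lifr and Il6st, the Janus kinases Jak1, Jak2 and Tyk2, the transcription factor Stat3, and its targets Socs3, Pim1 and Pim3. They were chosen by name as a pathway, and every probe that the platform annotation assigns to 1 of them was taken. This gave 27 probes for all 10 genes, out of 45281 probes and 19057 named genes on the arrays.

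LIF binds its receptor chain Lifr, which pairs with the shared signalling chain Il6st (gp130), and the JAK kinases bound to these chains then phosphorylate Stat3. Phosphorylated Stat3 enters the nucleus and activates genes that hold mouse ES cells in self-renewal. Among its direct targets is Socs3, which encodes an inhibitor that binds the receptor and the kinases and so closes a feedback loop. Activity of the pathway is carried by phosphorylation, which an RNA measurement does not see.

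All 6 samples were mouse ES cells grown in 15% serum, with LIF at a saturating dose, on a layer of embryonic fibroblasts that mitomycin C had stopped from dividing. The LIF in the medium was thus supplied to both groups. Cells of the shChd8 group had been electroporated with a pHYPER plasmid for a hairpin against Chd8, with no second hairpin or rescue among these samples, and those of the control group are labelled only as control; the content of the control vector and the ES cell line are not given in the sources used here. In both groups puromycin selection started at 24 h and lasted 48 h, after which RNA was taken, so the cells were a selected pool and not a clone. Each group had 3 Illumina bead arrays with 1 sample per array. Whether the 3 samples of a group were grown apart is not stated, so p-values cover the spread among the arrays, and this spread may be technical. All arrays were on 1 slide, with each group on 3 neighbouring positions, and an effect of position cannot be told apart from one of group.

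Per array, 16482 to 17440 probes were detected, and across the tested probes the correlation between arrays was 0.975 to 0.987 within groups and 0.954 to 0.977 between groups. Levels are normalized log2 intensities. They are compared between arrays for 1 probe at a time, never between probes. Chd8 checked the labels, with levels of 9.90, 9.97 and 10.02 in control and 8.71, 8.64 and 8.36 in shChd8 (ILMN_2703082), a fall to 38.1% of control (limma adjusted p = 0.00907). The ES cell markers (Pou5f1, Nanog, Sox2, Zfp42, Esrrb, Utf1, Dppa5a and Tdgf1) were detected in all 8 cases. None of the 8 was called by limma, beside 5.17% of all genes. At an unadjusted p under 0.05 there were 0 as well, beside 32.4% of all genes, and their median log2 change was -0.11.

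Fibroblast markers stood higher on the shChd8 arrays, and fibroblasts, here the feeder cells, also express several genes of this pathway. Of 29 markers with a probe, 26 were detected on some array, while Postn, Fbln5 and Fap were detected on none. Of 25 tested, 23 had a log2 change above 0, with a median of 0.96 beside -0.02 for all genes. Tagln and Fbln2 were the 2 that rose, beside 2.12% of all genes, and 15 had an unadjusted p under 0.05, all higher, beside 32.4% of all genes in either direction. Fbln2 was detected on 0 control and 3 shChd8 arrays, and so passed the filter only through the group where it is high. The same holds for Cald1, which is among the 15. The summed intensity of the list was 15481 to 26219 on control arrays and 30628 to 57446 on shChd8 arrays. More feeder cells and more marker RNA per cell cannot be told apart in such bulk samples. Primitive endoderm and trophectoderm lists showed no such shift, with medians of 0.05 each. Of 6 tested endoderm markers, 1 fell (Amn, by 1.01 on the log2 scale), beside 3.05% of all genes, and 0 rose. Gata4, Sox17, Foxa2 and Cubn were detected on no array. Of 5 tested trophectoderm markers limma called 0, beside 5.17% of all genes. At an unadjusted p under 0.05 there were 2, both lower, beside 32.4% of all genes in either direction. Elf5 and Hand1 were detected on no array.

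No gene of the LIF pathway passed the test between shChd8 and control. Testing required a detection p-value below 0.01 on 3 or more of the 6 arrays, and a probe was called at a limma p under 0.05 after Benjamini-Hochberg adjustment over all tested probes. All 10 genes had a tested probe, 17 probes in all, and each of the 17 was detected on at least 1 array of both groups. Limma called 0 of the 17, beside 3.68% of all 16732 tested probes, made up of 1.55% higher and 2.12% lower. Only 2 of 17 reached an unadjusted p under 0.05, beside 25.7% of all tested probes. The test without moderation also called 0 of these probes. It called only 17 of all 9711 genes, so this 0 says little about the pathway. The groups did not overlap for 4 of 17 probes, beside 30.2% overall. The log2 changes were above 0 for 10 (48.3% of all tested probes) and below 0 for 7, with a median of 0.02 beside -0.01 for all tested probes. Both probes under an unadjusted p of 0.05, of Lif and of Jak2, were higher in shChd8.

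**Figure D1:**
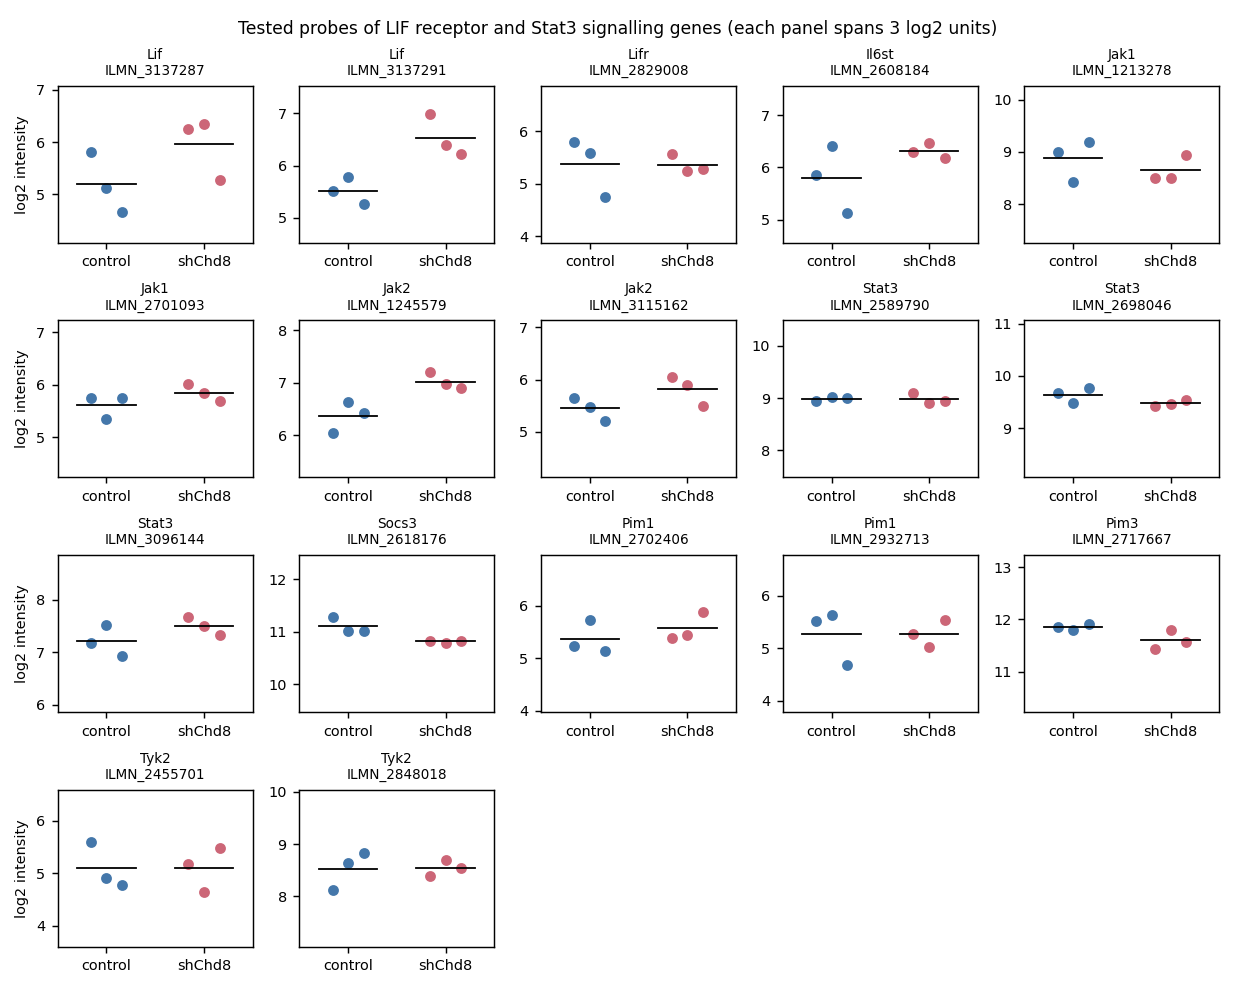
Normalized log2 intensity of the 17 tested probes on each array, with control arrays in blue, shChd8 arrays in red and replicates 1 to 3 from left to right. Lines mark group means (n = 3 each), and each panel spans the same range. Socs3, Pim3, one Jak2 probe and one Lif probe are those whose groups do not overlap.

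The ligand gene Lif, whose product feeder fibroblasts are known to secrete, had the largest difference of the 17 probes. Of its 5 probes, the 3 for transcript NM_008501 were detected on no array, with levels between 4.19 and 4.91, close to background. The 2 probes for transcript NM_001039537 gave a signal, which in control lay close to the detection limit. Of these, ILMN_3137287 was detected on 2 control and 3 shChd8 arrays. ILMN_3137291 measured 5.52, 5.79 and 5.26 in control and 6.98, 6.40 and 6.22 in shChd8. Every shChd8 array was thus above every control array, with shChd8 replicate 1 the highest and control replicate 3 the lowest. The log2 change was 1.01 (SE 0.23), a 2.02-fold difference with a 95% interval of 1.40 to 2.91, and limma's adjusted p of 0.0517 missed the threshold. An exact permutation of the array labels (two-sided) gave p = 0.1, and 3 against 3 cannot go lower. ILMN_3137287 measured 5.80, 5.12 and 4.66 in control and 6.25, 6.35 and 5.28 in shChd8. On this probe the groups overlapped and shChd8 replicate 2 was the highest array, and the log2 change was 0.77 (SE 0.35, limma adjusted p = 0.213).

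The order of the arrays in Lif can be set beside that of the feeder markers. The markers had a median deviation from their means of -0.16, -0.37 and -0.85 in control replicates 1 to 3, and of 0.93, 0.42 and 0.03 in those of shChd8. Control replicate 3 was lowest and shChd8 replicate 1 highest both for the markers and for ILMN_3137291. Control replicate 3 was also the lowest control array for 9 of the 17 pathway probes, beside 33.3% of all tested probes. In control replicates 1 and 2, ILMN_3137291 ran opposite to the markers (5.52 and 5.79). Fitted with the median of these markers as a covariate, the log2 change of this probe was 0.35 (SE 0.29, limma adjusted p = 0.777) and that of ILMN_3137287 was -0.34 (SE 0.40, limma adjusted p = 0.848). In that fit the median standard error of all tested probes went from 0.19 to 0.30, and limma called 0 genes, with 8.67% of probes at an unadjusted p under 0.05. The marker median was higher on every shChd8 array than on every control array, so this fit cannot tell marker level apart from group. What part feeder cells have in the Lif values was not tested. Leaving out control replicate 2 brought ILMN_3137291 past the threshold (log2 change 1.16, limma adjusted p = 0.0443), as did other settings described further on.

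**Figure D2:**
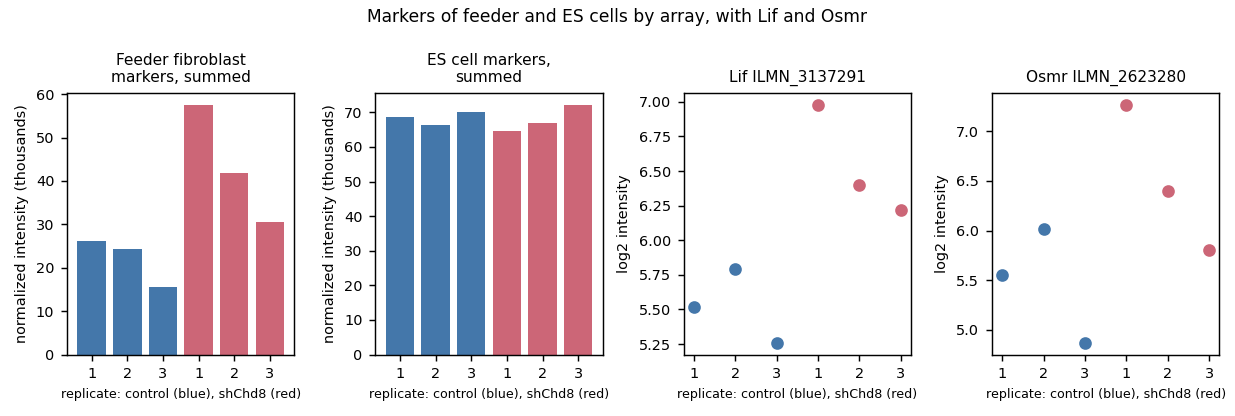
Summed normalized intensity of the tested feeder fibroblast markers and ES cell markers on each array (bars from 0), and the log2 intensity of Lif ILMN_3137291 and Osmr ILMN_2623280 on the same arrays (points). The marker sum is 30628 to 57446 in shChd8 and 15481 to 26219 in control, and shChd8 replicate 1 is highest for the feeder markers and for both of these probes.

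Neither receptor chain had a difference that passed the test, and their probes lay close to the detection limit. Lifr, the chain that binds LIF itself, was measured by 3 probes of the same transcript that did not follow each other. ILMN_2829008 measured 5.79, 5.59 and 4.75 in control and 5.56, 5.25 and 5.28 in shChd8, with a log2 change of -0.02 (SE 0.27, 95% interval -0.62 to 0.59). ILMN_1242960 was detected on control replicates 1 and 2, at 5.53 and 5.64, and on no other array, where it lay between 4.30 and 4.55. ILMN_2829015 was detected on shChd8 replicates 1 and 2, at 5.29 and 5.08, and on no control array. Neither of these 2 probes met the filter, and they point in opposite directions. For the tested probe the 95% interval of the ratio ran from 0.65 to 1.51.

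Il6st encodes gp130, the signalling chain shared by the IL-6 family. Its probe ILMN_2608184 measured 5.86, 6.41 and 5.13 in control and 6.29, 6.47 and 6.18 in shChd8. The control arrays spread widely and their highest value lay within the shChd8 range. The log2 change was 0.52 (SE 0.29, limma adjusted p = 0.308), and -0.01 with the marker covariate. The other probe, ILMN_2452075, was detected on no array.

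Among the kinases, Jak2, which binds gp130 and other cytokine receptors, had the lowest p. Its probe ILMN_1245579 measured 6.03, 6.63 and 6.43 in control and 7.21, 6.97 and 6.89 in shChd8. All shChd8 arrays lay above all control arrays, by a log2 change of 0.66 (SE 0.19) or 1.58-fold with a 95% interval of 1.17 to 2.14, and limma's adjusted p was 0.0828. With median scaling of the arrays, it passed the test (log2 change 0.90, limma adjusted p = 0.0195). Among the control arrays this probe was lowest in replicate 1 and not in replicate 3, while its shChd8 arrays ran in the same order as for the feeder markers. With the marker covariate its log2 change was 0.60 (SE 0.34, limma adjusted p = 0.663). ILMN_3115162, a probe for transcript NM_001048177, measured 5.64, 5.48 and 5.21 in control and 6.04, 5.90 and 5.49 in shChd8, where the lowest shChd8 array fell within the control range. Its log2 change was 0.36 (SE 0.20, limma adjusted p = 0.282), and -0.19 with the covariate. The other 2 Jak2 probes were detected on no array.

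Jak1, the kinase on which gp130 signalling is known to depend most, had 2 tested probes with changes of opposite sign. ILMN_1213278 measured 9.0, 8.43 and 9.19 in control and 8.51, 8.51 and 8.95 in shChd8, a log2 change of -0.22 (SE 0.23). ILMN_2701093 measured 5.74, 5.34 and 5.75 in control and 6.02, 5.84 and 5.69 in shChd8, a log2 change of 0.24 (SE 0.18). On both probes the groups overlapped, and limma's adjusted p was 0.581 and 0.418. Tyk2, a Janus kinase that also binds gp130, measured 8.13, 8.64 and 8.83 in control and 8.40, 8.70 and 8.55 in shChd8 on ILMN_2848018. The shChd8 arrays lay inside the control range, and the log2 change was 0.02 (SE 0.20, 95% interval -0.45 to 0.49). Its other tested probe, ILMN_2455701, was detected on 1 control array and 2 shChd8 arrays and had a log2 change of 0.01 (SE 0.28). Of the untested probes of these kinases, Jak1 ILMN_2552473 was detected on no array and Tyk2 ILMN_2455699 on 1 control array.

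Stat3 itself, the transcription factor at the end of the cascade, had no difference that passed the test. On ILMN_2589790 the levels were 8.94, 9.02 and 9.0 in control and 9.10, 8.90 and 8.94 in shChd8. The groups lay on top of each other, with a log2 change of -0.01 (SE 0.14) and a 95% interval of the ratio from 0.794 to 1.24. ILMN_2698046, for the same transcript NM_213659, measured 9.67, 9.49 and 9.76 in control and 9.42, 9.47 and 9.54 in shChd8, a log2 change of -0.16 (SE 0.15) with a ratio interval of 0.711 to 1.13. ILMN_3096144, for transcript NM_011486, measured 7.18, 7.52 and 6.92 in control and 7.67, 7.49 and 7.33 in shChd8, a log2 change of 0.29 (SE 0.19). The groups overlapped on all 3 probes, whose limma adjusted p lay between 0.37 and 0.971. These RNA levels do not show how much of the protein was phosphorylated.

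**Figure D3:**
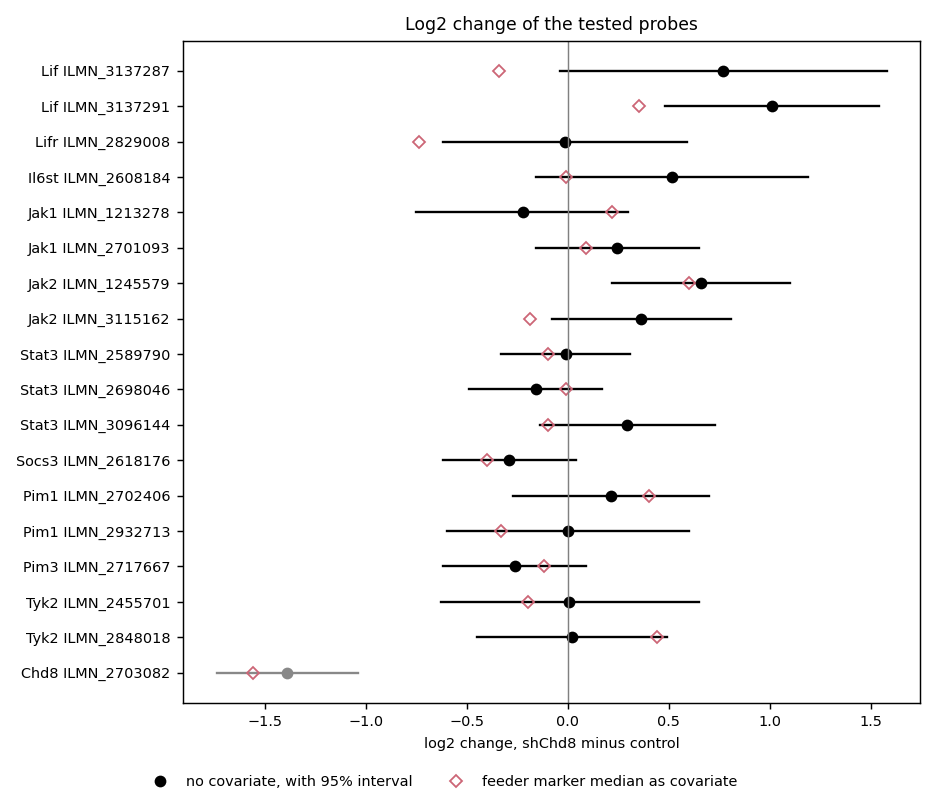
Log2 change (shChd8 minus control) of the 17 tested probes and of Chd8, as points with 95% intervals from limma, and values with the marker covariate as open diamonds without intervals. The Chd8 interval lies below -1, while 15 of the 17 pathway intervals include 0.

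Socs3 is the target most often read as an output of Stat3, and the sequence in front of it is shown because Stat3 is known to bind TTCNNNGAA, a motif that is its own reverse complement and so reads the same on both strands. The RefSeq window (build GRCm38.p6, chr11:117969317-117969616, minus strand) runs from 250 bases before to 50 after the start site that table gives. The RefSeq gene record reaches 970 bases upstream of that start site. The match to the motif is in capitals.
Socs3: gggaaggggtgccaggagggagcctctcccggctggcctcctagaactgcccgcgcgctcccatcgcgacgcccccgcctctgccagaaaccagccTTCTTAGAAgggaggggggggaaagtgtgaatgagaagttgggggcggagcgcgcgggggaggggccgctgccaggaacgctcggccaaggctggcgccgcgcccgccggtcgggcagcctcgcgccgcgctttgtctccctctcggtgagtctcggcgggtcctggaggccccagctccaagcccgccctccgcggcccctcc
The match, TTCTTAGAA, begins 154 bases before the start. It was the only match among 12 windows of the 10 pathway genes, and 8.3% of all 32851 windows of this length hold at least 1. A match of letters does not show that the factor binds there.

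Socs3 was lower in shChd8 by an amount that the test did not separate from the spread. Its only probe, ILMN_2618176, measured 11.28, 11.02 and 11.02 in control and 10.83, 10.79 and 10.83 in shChd8. All shChd8 arrays lay below all control arrays, with an SD of 0.02 (n = 3) in shChd8 and of 0.15 (n = 3) in control. The log2 change was -0.29 (SE 0.15), which is 81.8% of control with a 95% interval of the ratio from 0.649 to 1.03, and limma's adjusted p was 0.253. With the marker covariate the log2 change was -0.40 (SE 0.25, limma adjusted p = 0.704). Over the 6 arrays, the probes most like it among 14567 of other genes were those of 9930012K11Rik, Sult2b1 and Sae1, with Pearson's r of 0.995, 0.993 and 0.992. For the Stat3 probe ILMN_2698046, among 14565, they were Grasp, Guca1a and Nudcd2, with r of 0.998, 0.996 and 0.991. These values only describe 6 arrays in 2 groups, which share those groups and the slide.

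The Pim kinases are survival kinases whose genes are induced by Stat3. Pim3 (ILMN_2717667) measured 11.86, 11.80 and 11.92 in control and 11.43, 11.80 and 11.56 in shChd8. The groups did not overlap, but the lowest control and the highest shChd8 array were equal to 2 decimals. Its log2 change was -0.26 (SE 0.15, 95% interval -0.62 to 0.09, limma adjusted p = 0.32). Pim1 had 2 tested probes, both close to the detection limit. ILMN_2702406 measured 5.23, 5.73 and 5.13 in control and 5.39, 5.45 and 5.89 in shChd8, a log2 change of 0.22 (SE 0.21, limma adjusted p = 0.567). ILMN_2932713 was detected on 2 arrays of each group, and it measured 5.52, 5.63 and 4.68 in control and 5.27, 5.03 and 5.53 in shChd8, with a mean of 5.28 in both groups and a log2 change with an SE of 0.26. Both Pim1 probes overlapped between groups.

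Other genes around the receptor were counted on lists of 6 roles. Of 77 listed genes 69 had a named probe and 52 could be tested, each by its probe with the lowest p. Of these 52, 2 rose and 1 fell, which is 5.77% beside 5.17% of all 9711 genes treated the same way. At an unadjusted p under 0.05 there were 16, or 30.8% beside 32.4%. The share of calls was thus near that of all genes.

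Both genes that rose are listed as Stat3 targets. Junb, an AP-1 transcription factor induced early by LIF, measured 7.79, 8.26 and 7.70 in control and 9.02, 8.96 and 8.80 in shChd8 on ILMN_1220034. It rose by 1.01 on the log2 scale (SE 0.18, limma adjusted p = 0.0339), with every shChd8 array above every control array. The call was lost without control replicates 1 and 3 (adjusted p = 0.1 and 0.102) and without shChd8 replicates 1 and 2 (0.131 and 0.112). In these fits 44, 34, 15 and 27 genes were called in all, beside 502 with every array. The Junb call was also lost without the filter on detection (limma adjusted p = 0.0531) and in the unmoderated test (adjusted p = 0.118). The same held in the fit with the marker covariate (log2 change 0.77, limma adjusted p = 0.571). These settings called 259, 17 and 0 genes in all.

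Bcl2l1, which encodes the survival factor Bcl-xL, measured 6.80, 6.90 and 7.18 in control and 7.74, 7.75 and 7.76 in shChd8 on ILMN_2698430. It rose by 0.79 (SE 0.15, limma adjusted p = 0.0376) on this probe, while its 2 other tested probes had log2 changes of 0.59 and 0.42 without a call. The limma call was lost without any 1 of the 6 arrays: adjusted p was 0.107, 0.051 and 0.0829 without control replicates 1, 2 and 3, and 0.134, 0.117 and 0.0557 without shChd8 replicates 1, 2 and 3. Those fits called 44, 679, 34, 15, 27 and 435 genes in all, beside 502 with every array. The Bcl2l1 call was lost as well with detection on 1 array as the filter (limma adjusted p = 0.0554) and in the unmoderated test (adjusted p = 0.0944). It was also lost with the covariate (log2 change 1.00, limma adjusted p = 0.457). Genes called in all were 224, 17 and 0 under these settings.

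Of 20 tested Stat3 targets, 10 were above 0 and 10 below, with a median log2 change of 0.07 beside -0.02 for all genes, and 2 rose beside 2.12% of all genes. At an unadjusted p under 0.05 there were 7 of the 20, 6 of them higher and 1 lower, beside 32.4% of all genes in either direction. A few further targets were picked for description after their values were seen, because they are transcription factors of the self-renewing state. Gbx2 measured 11.14, 11.76 and 11.03 in control and 12.36, 12.03 and 12.18 in shChd8, with no overlap and a log2 change of 0.88 (SE 0.22) that missed the limma threshold at an adjusted p of 0.0583. Klf4, Klf5 and Tfcp2l1 had log2 changes of 0.27 (SE 0.18), -0.08 (SE 0.17) and -0.02 (SE 0.16), and the groups overlapped for all of them. For Klf4 this is the probe with the lowest p, and its other tested probes had 0.01 and -0.05. The adjusted p of Tfcp2l1, a main effector of Stat3 in ES cells, was 0.946 by limma.

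**Figure D4:**
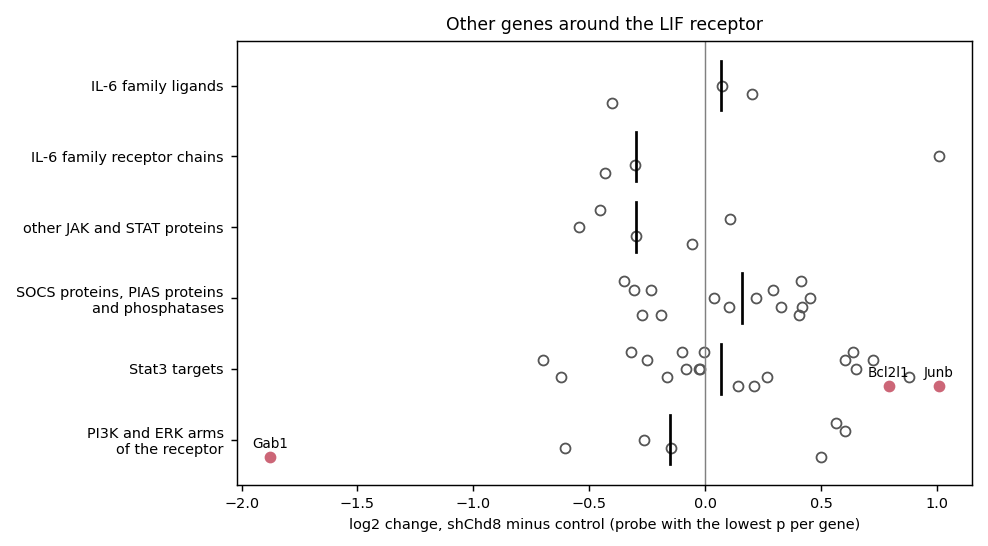
Log2 change (shChd8 minus control) of the 52 tested genes on 6 lists around the LIF receptor, 1 point per gene on its probe with the lowest p. Filled points passed the test (Junb and Bcl2l1 higher, Gab1 lower) and the bars mark list medians, which lie between -0.30 and 0.16.

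The gene that fell was Gab1, an adaptor that links gp130 and growth factor receptors to the PI3K and ERK pathways. It measured 12.63, 12.66 and 12.42 in control and 10.74, 10.57 and 10.78 in shChd8 on ILMN_1222009. The groups lay far apart, with a log2 change of -1.88 (SE 0.15, limma adjusted p = 0.00329), and with the covariate of -1.98 without a call (limma adjusted p = 0.331). It was the only called gene among 7 tested of the PI3K and ERK list, beside 3.05% of all genes that fell, and the list median was -0.15. There were 5 of the 7 with an unadjusted p under 0.05, 3 higher and 2 lower, beside 32.4% of all genes in either direction. Shc1, among the lower, was taken on ILMN_1236765, which was detected on 3 control and 0 shChd8 arrays. It thus passed the filter through control alone. Its other tested probe, ILMN_2957070, was detected on 3 arrays of each group and had a log2 change of 0.27 (SE 0.15).

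On the remaining lists limma called no gene, beside 5.17% of all genes. Their counts at an unadjusted p under 0.05 stand beside 32.4% of all genes. Of 3 tested IL-6 family ligands, 0 had an unadjusted p under 0.05 and the median was 0.07. The ligand genes Ctf1, Il6 and Osm had log2 changes of -0.40 (SE 0.19), 0.20 (SE 0.26) and 0.07 (SE 0.24), and the Il6 and Osm probes were each detected on 3 of the 6 arrays only. Among 3 receptor chains, 1 had an unadjusted p under 0.05. This was Osmr, the oncostatin M receptor chain of fibroblasts and other mesenchymal cells, with 5.55, 6.02 and 4.87 in control and 7.27, 6.40 and 5.80 in shChd8. The groups overlapped, with a log2 change of 1.01 (SE 0.40, limma adjusted p = 0.157), and the same arrays as for Lif ILMN_3137291 and the feeder markers were lowest and highest. What part feeder cells have in the Osmr value was not tested. Il27ra and Il6ra, the other receptor chains tested, had -0.43 (SE 0.25) and -0.30 (SE 0.18).

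Of 5 other JAK and STAT genes, 4 were below 0, with a median of -0.30, and 2 had an unadjusted p under 0.05. Stat6, the factor of IL-4 signalling, measured 7.07, 7.03 and 7.14 in control and 6.70, 6.69 and 6.48 in shChd8. The groups did not overlap, and the log2 change was -0.45 (SE 0.14, limma adjusted p = 0.1). Stat4 and Stat2 had -0.54 (SE 0.19) and -0.30 (SE 0.32). Of 14 tested inhibitors (SOCS proteins, PIAS proteins and phosphatases), 9 were above 0, with a median of 0.16, and 1 had an unadjusted p under 0.05. This was Pias3, known as an inhibitor of Stat3, with 7.55, 7.51 and 7.66 in control and 7.99, 7.99 and 7.98 in shChd8. Its log2 change of 0.41 (SE 0.14) had a limma adjusted p of 0.11, and its other probe had 0.25. The phosphatase genes Ptpn2 and Dusp1 had -0.31 (SE 0.14) and 0.42 (SE 0.20).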

How the data were processed

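Per the file headers, the deposited non-normalized table gives probe intensity (linear) beside a detection p-value. The submitters' processing notes name GenomeStudio without a version. The deposited normalized intensity kept each array's rank order (Spearman rho 1) and had matching quantiles, as quantile normalization without background subtraction gives. From the non-normalized values, background correction and quantile normalization were done with neqc (offset 16, background from the detection p-values) in limma 3.58.1 and R 4.3.3, giving log2 values. Probes were fitted with lmFit and eBayes, two-sided, without a covariate, after a test on simulated data. Intervals are at 95%. Symbols were updated through RefSeq gene identifiers for 34807 of 34885 probes with 1 symbol. Members and lists (feeder, ES cell, primitive endoderm and trophectoderm markers, and 6 pathway lists) were chosen with earlier results of these data known, and so were the design and the alternatives. Named were all members, Chd8, called genes of each list or otherwise the 3 with the lowest p, and the 3 probes most like Socs3 and Stat3. Gbx2, Klf4, Klf5 and Tfcp2l1 fall outside this rule and were picked after their values were seen. Shc1 and Cald1 also fall outside it and were named for their detection in a single group. Pdgfra is on both the feeder and the endoderm list. The number of arrays limits the precision.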

Additional observations from a re-analysis of the deposited data

How the results depend on the processing

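The number of called genes depended strongly on the processing: 502 became 810 with normexp without control probes, 1326 both without background correction and on the authors' normalized intensities, 1341 with median scaling, 1184 with an offset of 50, 259 without a filter, 224 with the looser filter (1 array), 833 with the stricter filter (6 arrays), 17 with an unmoderated test, 1328 with an intensity trend and robust prior, 0 with the marker covariate (feeder median; 8.67% of probes at an unadjusted p under 0.05), and 15 to 679 when 1 array was left out. Under median scaling the all-probe median went from -0.01 to 0.18, and the split from 206 higher and 296 lower to 1165 and 176. The number of called LIF pathway probes, 0 in the main analysis, was 2 with median scaling (Lif ILMN_3137291 at 1.21 and Jak2 ILMN_1245579 at 0.90). It was 1, in each case Lif ILMN_3137291, with normexp without control probes (0.80, limma adjusted p = 0.0415), no background correction or the deposited normalized values (0.43, 0.0464), an offset of 50 (0.67, 0.0311), the stricter filter (0.0351) and the trend (0.0216), and 0 to 1 when 1 array was left out. The cause of these differences was not tested. Chd8 kept its direction throughout, and its call was lost with the unmoderated test (-1.39, adjusted p = 0.061) and the feeder covariate (-1.56, limma adjusted p = 0.331). It ranged from -1.47 to -1.29 when 1 array was left out. Of 282 fits of the 17 pathway probes under other settings, 243 kept direction and side of the threshold, 9 gained a call and 30 changed sign, none of the last with a call. Signs turned with the feeder covariate for Lif ILMN_3137287 (-0.34), Il6st (-0.01), Jak1 ILMN_1213278 (0.22), Jak2 ILMN_3115162 (-0.19), Stat3 ILMN_3096144 (-0.10) and Tyk2 ILMN_2455701 (-0.20). With median scaling they turned for Lifr (0.10), Jak1 ILMN_1213278 (0.01), Stat3 ILMN_2589790 (0.22) and ILMN_2698046 (0.07) and Pim1 ILMN_2932713 (0.12), each below or near the shift of 0.18 in all probes. Pim1 ILMN_2932713 was 0.01 with normexp without control probes. Tyk2 ILMN_2455701 was -0.01 with normexp without control probes, -0.0022 without background correction and -0.0020 on the deposited normalized values. Leaving out 1 array gave -0.33 to 0.19 for Lifr, -0.07 to 0.03 for Stat3 ILMN_2589790, -0.30 to 0.18 for Pim1 ILMN_2932713 and -0.18 to 0.17 for Tyk2 ILMN_2848018. For Tyk2 ILMN_2455701 it gave -0.16 to 0.23 over 3 fits, since the probe was detected on 3 arrays and missed the filter when any of these was left out. Probes near background, with levels about 5, carry little information on a change. Called Stat3 targets numbered 0 to 6 and called PI3K and ERK genes 0 to 3 over all settings. The list of SOCS proteins, PIAS proteins and phosphatases had 1 called gene with median scaling and 0 under every other setting. The lists of ligands, receptor chains and other JAK and STAT proteins had 0 throughout. No paired analysis was possible because the replicate numbers follow only the order of the samples.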
